A study of Mus musculus with 30 samples.

Results

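Collagen chain genes are described here across 30 tumour libraries of the mouse melanoma line YUMM1.7. All genes whose mouse symbol has the form Col, digits, a, digits, and that held at least 10 counts summed over the 30 libraries, were taken. The files list 54532 genes, 44 of them with such a symbol, and 34 reached the minimum. The 10 that did not were Col2a1, Col4a3, Col4a4, Col6a5, Col6a6, Col9a1, Col10a1, Col19a1, Col22a1 and Col26a1, with 0 to 9 counts each.

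YUMM1.7 is a melanoma line with an activated Braf gene that grows in mice of the C57BL/6 strain, the strain given in the labels. Cells of 5 clones, 2646TN, 2646R, 14559TN, 14559R and 13TN, had been isolated with CaTCH, a method that retrieves chosen barcoded clones, and were grown as tumours under the skin. Tumours of each clone were left untreated or received RAFi/MEKi, inhibitors of the RAF and MEK kinases of the MAPK pathway, with 3 tumours in each of the 10 groups. The labels name no drug, dose, treatment time or age of the mice. They give no meaning for TN and R, and the titles of the 13TN samples carry the word Depleted. Each group comes from 1 clone, so an R against TN difference is a difference between single clones. The p-values cover the spread between tumours of a clone. Live GFP-positive cells were sorted after collagenase digestion and a CD45 stain. GFP marks the injected cells, and RNA was sequenced from the 3′ end with the Lexogen QuantSeq kit.

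Collagens are secreted proteins built from triple helices of 3 chains, and many chains work in fixed partnerships, while others join copies of themselves. Fibrillar collagens form the cables of connective tissue, fibril-associated collagens sit on those cables, network collagens build the sheets of basement membranes, type VI forms beaded filaments around cells, and multiplexins carry sugar chains at basement membranes. Collagen is known mainly as a product of fibroblasts, and melanoma cells of a dedifferentiated, mesenchymal type are also known to make it.

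Libraries held 3022801 to 5278453 counts, with a median of 4042893. Levels are given as CPM, counts per 1000000 counts of a library after TMM scaling. Of the melanocyte genes, Tyr, Tyrp1, Dct and Gpr143 had 0 counts in all 30 libraries and Mlana had 1 count in all. Pmel held 92 counts over 27 libraries, and Sox10, a neural crest factor, 453 over 20 with a highest group mean of 19.5 CPM. Mitf, the lineage's master regulator, was read in all 30 with group means of 13.9 to 64.3 CPM. The 13 fibroblast markers other than collagens were each read in at least 10 libraries, from 18 counts for Fbln1 to 65794 for Dcn. Their summed level was 392 to 514 CPM in untreated and 395 to 699.6 CPM in treated 2646TN tumours, 292 to 463 and 653 to 908 in 2646R, 805 to 1024 and 1332 to 2174 in 14559TN, 1661 to 2768 and 2644 to 4185 in 14559R, and 294 to 326 and 445 to 571 in 13TN. Among these fibroblast markers Dcn, the small proteoglycan decorin, ran from 35.1 to 2470 CPM between group means. Postn ran from 5.16 to 546 CPM, Pdgfra from 74.75 to 407 and Cd34 from 40.25 to 331. Fbln1, Clec3b, Mfap5, Thy1 and Pi16 had group means of 7.69 CPM or less and added little to the sums. The 11 pericyte and smooth muscle markers summed to 114 to 121 CPM in untreated and 289 to 786 CPM in treated 2646TN tumours, to 467 to 486 and 881 to 1159 in 2646R, and lay between 276 and 584 CPM in every tumour of the other 3 clones. Of these pericyte and smooth muscle markers, Acta2 ran from 4.40 to 750 CPM between group means, Pdgfrb from 46.3 to 267 and Cspg4 from 34.2 to 225. Tagln, Myh11, Kcnj8, Abcc9 and Des had group means of 3.89 CPM or less. In all 5 clones the mean fibroblast sum was higher with the drug than without it, as was the collagen sum. The 14 macrophage markers summed to 171 to 273 CPM in untreated and 29.8 to 78.1 CPM in treated 2646TN tumours and to 36.1 to 71.7 and 110.3 to 134 in 2646R. Their sums were 25.3 to 92.6 and 71.9 to 141 CPM in 14559TN, 24 to 55.1 and 21.9 to 43.1 in 14559R, and 44.8 to 74.35 and 31.2 to 83.4 in 13TN, with overlap. Of the 13 macrophage markers tested, 7 fell in 2646TN (2.24% of all tested genes) and 2 rose in 2646R (9.70%), the latter near that share. In untreated tumours 8 were lower in 2646R than in 2646TN (18.4%). The 11 endothelial markers summed to 249.9 to 325 CPM in untreated and 121 to 181 CPM in treated 14559TN tumours. Their sums were 112 to 136 and 65.9 to 75.3 CPM in 2646TN and 32.2 to 39.45 and 52 to 59.1 in 2646R. They were 75.1 to 122 and 110.2 to 160.3 CPM in 14559R and 197 to 242 and 175 to 214 in 13TN, with overlap. Of these markers Plvap ran from 19.15 to 267 CPM between group means, and Tek, Cldn5 and Emcn had group means of 1.08 CPM or less. The part of such cells in the collagen values was not tested. Fewer cells of a type and less RNA per cell cannot be told apart in these bulk libraries. Whether the marker reads came from the injected cells or from other cells was not tested.

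The summed level of the 34 collagen genes was higher with RAFi/MEKi than without in the mean of all 5 clones. It stood at 11995, 10654 and 8447 CPM in 2646TN, 10630, 11655 and 13433 in 2646R, 16124, 14975 and 16375 in 14559TN, 19054, 24412 and 21450 in 14559R, and 10619, 12345 and 11183 in 13TN in untreated tumours. With the drug it was 16860, 17896 and 9081 CPM in 2646TN, 23466, 22400 and 20249 in 2646R, 16247, 23742 and 18803 in 14559TN, 32225, 23660 and 21778 in 14559R, and 15902, 15047 and 15017 in 13TN. Treated and untreated tumours did not overlap in 2646R and 13TN, where the means went from 11906 ± 1418 to 22038 ± 1639 CPM and from 11382 ± 880.2 to 15322 ± 502 CPM (SD, n = 3). In 2646TN, treated tumour 3 stood apart at 9081 CPM, below all but 1 of the untreated tumours. The groups of 14559TN and 14559R overlapped too. Fibrillar chains were the largest class in each group, with group means of 5001 CPM in untreated 13TN up to 16770 CPM in treated 2646R.

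**Figure D1:**
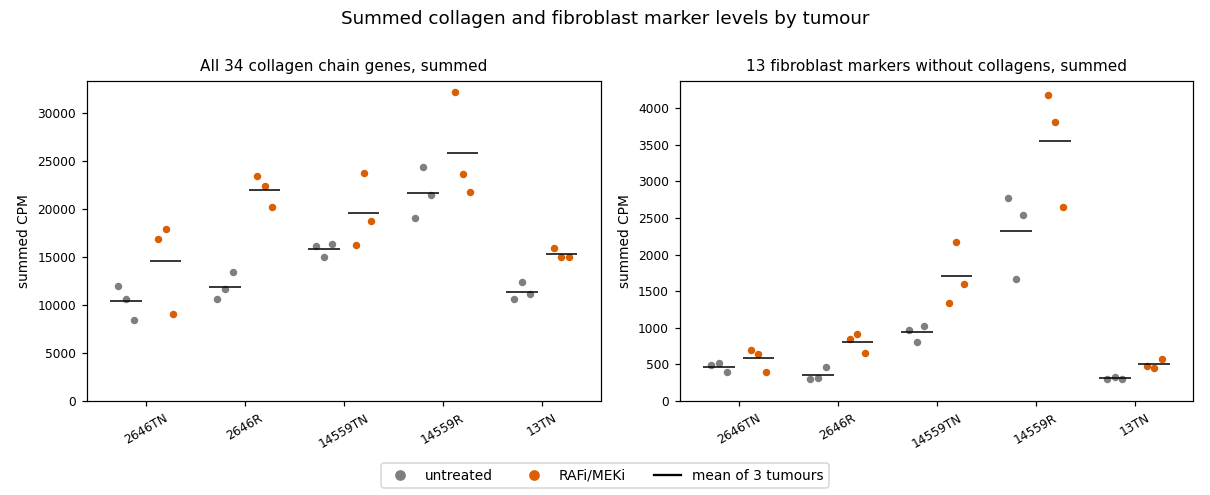
Summed CPM of the 34 collagen chain genes (left) and of 13 fibroblast markers that are not collagens (right) in every tumour, by clone, untreated in grey and RAFi/MEKi-treated in orange, with the mean of 3 tumours as a bar. Treated collagen sums lie above untreated ones without overlap in 2646R and 13TN, and both sums are highest on average in treated 14559R.

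Of the 34 genes, 27 passed the filter on low counts and were tested in 1 fit of 13286 genes. Counts of called genes are given beside the share of all tested genes called in that direction, at an adjusted p under 0.05 in edgeR's quasi-likelihood test. In 2646TN, 4 collagen genes rose and 2 fell with the drug (1.69% and 2.24% of all genes), and in 2646R 10 rose and 2 fell (9.70% and 10.2%). In 14559TN 7 rose and 2 fell (12.4% and 16.0%), and in 13TN 9 rose and 2 fell (13.6% and 17.4%). In 14559R none of the 27 was called (0.143% of all genes rose and 0.0527% fell), with 5 at an unadjusted p under 0.05 and 1 called by DESeq2. As a mean over the 5 clones, 14 rose and 2 fell (17.4% and 21.0%). By class, this mean rose for 7 of 10 fibrillar, 3 of 3 fibril-associated, 2 of 5 network and 2 of 3 type VI genes, and it fell for 1 type VI gene, Col6a3, and for 1 of 2 multiplexins, Col18a1. The fibrillar genes that rose include Col24a1, whose mean takes in a group with 0 counts. Of 11 tested fibroblast markers, 5 rose and 1 fell in the same comparison. The median log2 fold change of the 27 was 0.27 in 2646TN, 0.72 in 2646R, 0.33 in 14559TN, 0.18 in 14559R and 0.52 in 13TN, beside medians of all genes of -0.00 to 0.01. In 2646R, 14559TN and 13TN the share of tested collagen genes that rose lay above that of all genes and the share that fell lay below it. In 2646TN both shares lay above it. Neither share was tested.

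The genes that rose in more than 1 clone were Col1a1, Col3a1, Col4a5 and Col12a1, in 3 clones each, and Col1a2, Col4a1, Col14a1, Col15a1 and Col16a1, in 2 each. Col18a1 fell in 3 clones, and Col15a1 fell in 2 other clones than those in which it rose. The share of all genes called the same way in 2 or 3 clones was not computed, so how unusual such repeats are was not tested. Responses differed among the 5 clones for 9 of the 27 genes, a share near that of all genes (28.8%). These were Col1a1, Col4a2, Col4a5, Col5a3, Col8a1, Col14a1, Col15a1, Col16a1 and Col18a1. Col16a1 was not called without untreated 2646R tumour 1 (adjusted p = 0.063), nor Col4a2 without untreated (adjusted p = 0.0652) or treated 2646R tumour 3 (adjusted p = 0.072). Set against 2646TN, the response of 2646R was higher for Col4a5 and Col16a1 and lower for Col5a3 and Col8a1 (2.36% and 1.78% of all genes). Set against 14559TN, the response of 14559R was higher for Col18a1 and lower for Col14a1 and Col15a1 (7.93% and 4.08%).

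**Figure D2:**
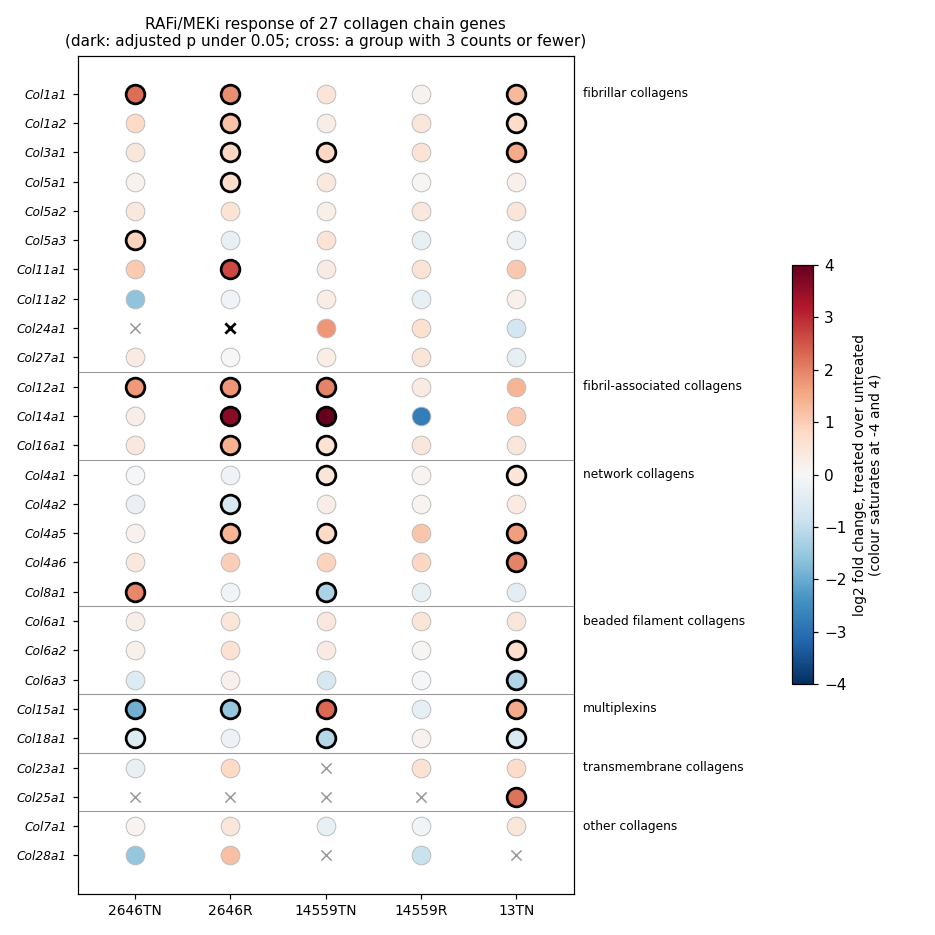
Log2 fold change of treated over untreated tumours for 27 collagen chain genes (rows, by class) in 5 clones (columns), red for higher and blue for lower with the drug, a dark rim marking an adjusted p under 0.05 and a cross a pair of groups of which one held 3 counts or fewer. Most colours are red, the column of 14559R has no dark rim, and Col15a1 is blue in both 2646 clones and red in 14559TN and 13TN.

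Before treatment the clones already differed. Among the 5 untreated groups 26 of the 27 genes differed (56.6% of all genes), all but Col11a2. Without untreated 14559R tumour 2, Col14a1 was not called there (adjusted p = 0.409). In untreated tumours 6 genes were higher and 8 lower in 2646R than in 2646TN (18.3% and 18.4% of all genes), and in treated tumours 8 were higher and 4 lower (10.0% and 10.1%). In the other pair, 12 were higher and 4 lower in untreated 14559R than in 14559TN (12.9% and 11.2%), and 14 were higher and 5 lower in treated tumours (26.6% and 22.8%). Near the share of all genes were the higher calls of untreated 2646R and the lower calls of treated 2646R and of 14559R in both arms. Col1a1, Col5a3 and Col7a1 were higher in R in all 4 of these comparisons (2.69% of all genes), and Col4a5 and Col4a6 were lower in all 4 (1.88%). Col5a1, Col14a1, Col15a1, Col18a1 and Col23a1 were called in both directions. The comparisons of clones use the same libraries as the drug responses.

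**Figure D3:**
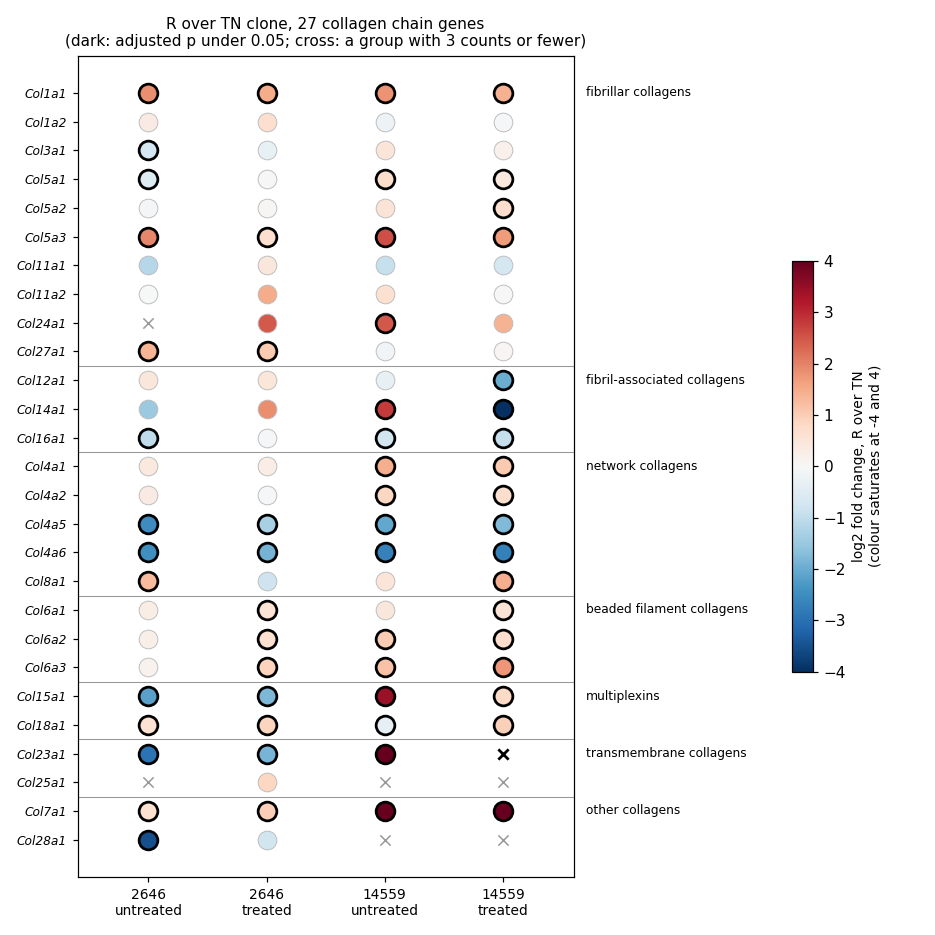
Log2 fold change of the R over the TN clone for 27 collagen chain genes in the 2646 pair and the 14559 pair, untreated and treated, red for higher and blue for lower in R, with rims and crosses as in the plot of drug responses. Col1a1, Col5a3 and Col7a1 are red and Col4a5 and Col4a6 blue in all 4 columns, and Col15a1 is blue in the 2646 pair and red in the 14559 pair.

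Type I collagen, the main protein of tendon, bone and scar, is made of chains encoded by Col1a1 and Col1a2. Col1a1 (GRCm38 chr11:94936224-94953042) stood at 317, 329 and 253 CPM in 2646TN, 703, 1004 and 1562 in 2646R, 532, 506 and 433 in 14559TN, 1005, 2600 and 1490 in 14559R, and 238, 241 and 117 in 13TN in untreated tumours. With the drug its level was 1654, 1624 and 969.5 CPM in 2646TN, 4303, 4292 and 3293 in 2646R, 630.2, 874 and 579 in 14559TN, 2853, 1443 and 1330 in 14559R, and 588, 411 and 479.9 in 13TN. All 6 untreated R tumours lay above all 9 untreated TN tumours, and treated and untreated tumours overlapped in 14559R but in no other clone. Fold changes are given as log2 ± standard error. Col1a1 rose by 2.24 ± 0.37 (adjusted p = 0.00103) in 2646TN, by 1.86 ± 0.36 (adjusted p = 0.000946) in 2646R and by 1.31 ± 0.36 (adjusted p = 0.009) in 13TN. The 13TN call was lost without untreated tumour 3 (1.07, adjusted p = 0.0575). Its change was 0.50 ± 0.36 (adjusted p = 0.316) in 14559TN and 0.14 ± 0.35 (adjusted p = 0.934) in 14559R. R exceeded TN by 1.86 ± 0.37 (adjusted p = 0.000447) in untreated and 1.49 ± 0.36 (adjusted p = 0.00569) in treated tumours of the 2646 pair. In the 14559 pair it did so by 1.79 ± 0.37 (adjusted p = 0.00108) untreated and 1.43 ± 0.36 (adjusted p = 0.00241) treated.

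Col1a2 (GRCm38 chr6:4504814-4541544), which encodes the partner chain, was at 4354, 3290 and 2662 CPM in 2646TN, 4458, 4182 and 4236 in 2646R, 5644, 5117 and 5505 in 14559TN, 3872, 5066 and 4747 in 14559R, and 1972, 2422 and 2014 in 13TN without the drug. Treated tumours had 7027, 8079 and 3021 CPM in 2646TN, 9696, 9810 and 9283 in 2646R, 4581, 8311 and 6699 in 14559TN, 8451, 5130 and 5280 in 14559R, and 3624, 4251 and 3136 in 13TN. The 2646R groups were far apart, whereas treated 2646TN tumour 3 lay below the mean of the untreated tumours. Col1a2 rose by 1.16 ± 0.26 (adjusted p = 0.00236) in 2646R and by 0.78 ± 0.26 (adjusted p = 0.023) in 13TN. The 13TN call was lost without untreated tumour 1 (0.75, adjusted p = 0.0703), untreated tumour 3 (0.76, adjusted p = 0.0735) or treated tumour 2 (0.66, adjusted p = 0.0909). R and TN clones were not called different in Col1a2 in any of the 4 comparisons, whose values ran from -0.25 ± 0.26 (adjusted p = 0.525) in untreated 14559 tumours to 0.67 ± 0.26 (adjusted p = 0.0685) in treated 2646 tumours. The ratio of Col1a1 to Col1a2 CPM within a tumour was 0.0582 to 0.121 in the 9 untreated TN tumours and 0.158 to 0.513 in the 6 untreated R tumours. It averaged 0.0893 ± 0.0145 in untreated and 0.252 ± 0.0617 in treated 2646TN tumours (SD, n = 3), without overlap. With 3′-end counts this ratio is a comparison between tumours, not the proportion of the chains. Across the 30 libraries log2 CPM of Col1a1 and Col1a2 had a Pearson r of 0.79.

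Type III collagen, a homotrimer of the Col3a1 product, is found beside type I in skin and vessels. Col3a1 (GRCm38 chr1:45311538-45349706) was at 1667, 1586 and 1307 CPM in 2646TN, 576, 924 and 1232 in 2646R, 2634, 2491 and 2771 in 14559TN, 3290, 4854 and 3091 in 14559R, and 1342, 1669 and 1394 in 13TN untreated. Treated tumours held 2400, 2545 and 1238 CPM in 2646TN, 1850, 1555 and 1514 in 2646R, 3990, 5506 and 4687 in 14559TN, 7312, 4519 and 4467 in 14559R, and 4609, 3774 and 4038 in 13TN. In 2646R, 14559TN and 13TN the treated tumours all lay above the untreated ones, with increases of 0.85 ± 0.25 (adjusted p = 0.018), 0.84 ± 0.25 (adjusted p = 0.0129) and 1.50 ± 0.25 (adjusted p = 6.80e-05) in that order. The 2646R call was lost without untreated tumour 1 (0.61, adjusted p = 0.11) or treated tumour 1 (0.78, adjusted p = 0.0648), and the 14559TN call without treated tumour 2 (0.72, adjusted p = 0.0577). Unlike for Col1a1, untreated 2646R had less Col3a1 than 2646TN (-0.74 ± 0.25, adjusted p = 0.023). The call was lost without untreated 2646TN tumour 1 (-0.67, adjusted p = 0.0719) or 2 (-0.71, adjusted p = 0.058) or without untreated 2646R tumour 1 (-0.50, adjusted p = 0.138). An exon of Gm47302 overlaps Col3a1 on the same strand, so reads of the shared stretch cannot be assigned to one of them.

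**Figure D4:**
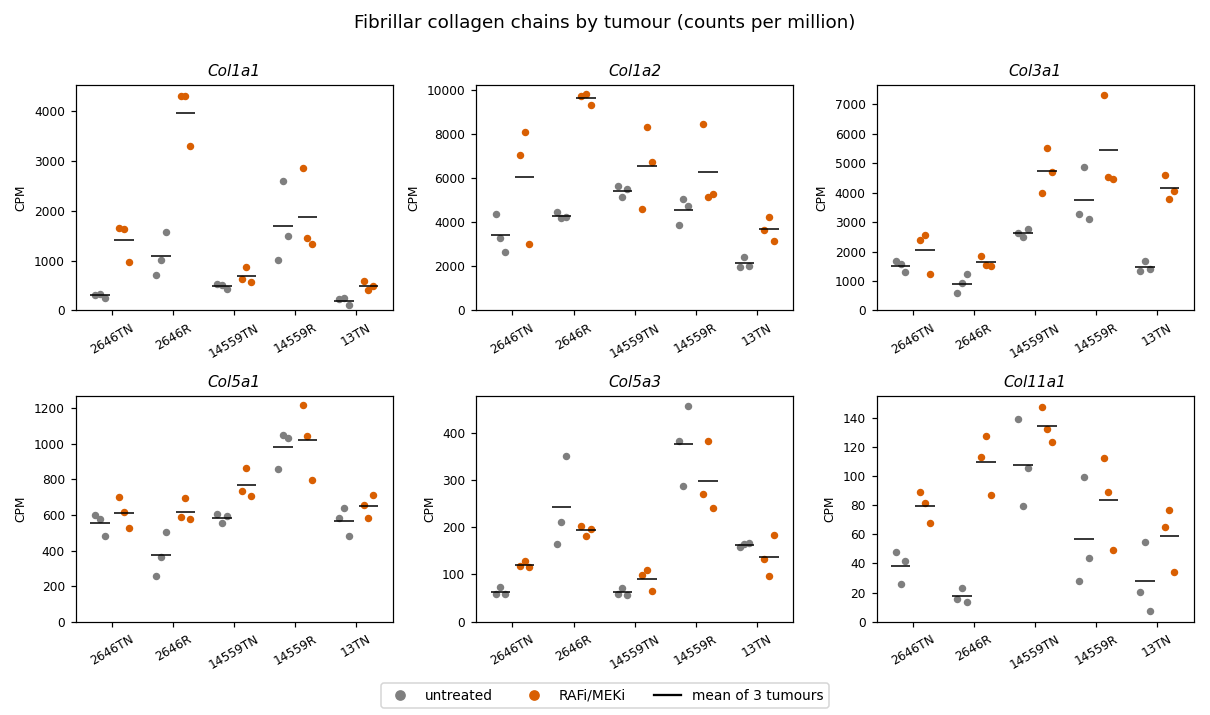
CPM of 6 fibrillar collagen genes in every tumour, by clone, untreated in grey and RAFi/MEKi-treated in orange, with the mean of 3 tumours as a bar and an own axis from 0 for each gene. Col1a1 is highest in treated 2646R (3293 to 4303 CPM), and Col5a3 is higher in both untreated R clones than in the TN clone of the pair.

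Type V collagen chains sit inside type I fibrils and set their width. Col5a1 (GRCm38 chr2:27886425-28039514) had 599, 577 and 481 CPM in 2646TN, 258, 366 and 504 in 2646R, 605, 556 and 593 in 14559TN, 861, 1049 and 1030 in 14559R, and 584, 639 and 483 in 13TN untreated. Its treated levels were 699, 615 and 524 CPM in 2646TN, 589, 694 and 575 in 2646R, 736, 864 and 708 in 14559TN, 1218, 1046 and 797 in 14559R, and 654, 583 and 713 in 13TN. A rise was called in 2646R (0.72 ± 0.17, adjusted p = 0.00282) and in the mean over clones (0.30 ± 0.08, adjusted p = 0.00192). Untreated 14559R exceeded 14559TN without overlap (0.74 ± 0.17, adjusted p = 0.00161). Untreated 2646R was below 2646TN with overlapping tumours (-0.55 ± 0.17, adjusted p = 0.0112), a call lost without 2646R tumour 1 (-0.34, adjusted p = 0.127). The difference between treated 14559R and 14559TN (0.41 ± 0.17, adjusted p = 0.0464) was borderline, with overlapping tumours. It was lost with median-of-ratios size factors (0.36, adjusted p = 0.0798), by DESeq2 (0.36, adjusted p = 0.0852), in a fit of the groups compared (0.38, adjusted p = 0.0701). It was also lost in 18 of the 30 fits that each left out 1 library, among them those without treated 14559TN tumour 1 or 3 or treated 14559R tumour 1 or 2.

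Col5a2 (GRCm38 chr1:45374321-45503282), the second chain, lies tail to tail with Col3a1 at a distance of 24614 bases. It was at 329.6, 289 and 209 CPM in 2646TN, 235, 234 and 306 in 2646R, 449, 342 and 423 in 14559TN, 513, 706 and 543 in 14559R, and 230.1, 335 and 265 in 13TN untreated. With RAFi/MEKi the values were 444, 454 and 199 CPM in 2646TN, 448, 346 and 349 in 2646R, 363, 581 and 490.2 in 14559TN, 1080, 648 and 635 in 14559R, and 392, 417 and 379 in 13TN. No single clone reached the threshold, with values from 0.24 ± 0.26 (adjusted p = 0.523) in 14559TN to 0.56 ± 0.26 (adjusted p = 0.131) in 2646R. The mean over clones rose by 0.43 ± 0.12 (adjusted p = 0.00476). Treated 14559R tumours lay above treated 14559TN tumours (0.72 ± 0.26, adjusted p = 0.0237). This was not called without 14559TN tumour 1 (0.56, adjusted p = 0.116) or 3 (0.74, adjusted p = 0.0503) or 14559R tumour 1 (0.42, adjusted p = 0.186). Across the 30 libraries log2 CPM of Col5a1 and Col5a2 had a Pearson r of 0.84, a description of tumours that share clones and treatment.

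The third type V chain, Col5a3 (GRCm38 chr9:20770050-20815067), was higher in each R clone than in its TN partner. Untreated levels were 58.6, 73.1 and 58.1 CPM in 2646TN, 164, 211 and 351 in 2646R, 58.2, 72.1 and 56.6 in 14559TN, 382, 287 and 456 in 14559R, and 158, 164 and 166 in 13TN. Treated tumours had 118, 128 and 115 CPM in 2646TN, 201, 182 and 196 in 2646R, 98.9, 109 and 64.7 in 14559TN, 269, 382 and 240.4 in 14559R, and 132, 96.4 and 184 in 13TN. R tumours lay above TN tumours of the same pair without overlap in each arm. Untreated 13TN, at 158 to 166 CPM, was near the lowest untreated 2646R tumour at 164 CPM. The R against TN difference was 1.94 ± 0.25 (adjusted p = 1.48e-06) untreated and 0.68 ± 0.24 (adjusted p = 0.0456) treated in the 2646 pair. It was 2.59 ± 0.25 (adjusted p = 3.83e-08) and 1.71 ± 0.25 (adjusted p = 3.04e-06) in the 14559 pair. It rose with the drug in 2646TN (0.93 ± 0.25, adjusted p = 0.0322), and the response of 2646R differed from that of 2646TN by -1.25 ± 0.34 (adjusted p = 0.0365). The 2646TN response was lost when any one of the 6 tumours of that clone was left out (0.87 to 1.04, adjusted p = 0.0536 to 0.137). The response difference was lost in 11 of 30 fits without 1 library (-1.26 to -0.89, adjusted p = 0.0508 to 0.0947), and was nearest to 0 without untreated 2646R tumour 3. The others of these fits left out untreated 2646TN tumour 1 or 3, treated 2646TN tumour 1 or 2, a treated 2646R tumour or an untreated 13TN tumour. The treated 2646 difference was lost in 16 of 30 such fits, among them each of those without a treated 2646TN or 2646R tumour (0.65 to 0.73, adjusted p = 0.0729 to 0.138), and with scaling that left out the collagens (0.67, adjusted p = 0.0542).

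Col11a1 (GRCm38 chr3:114030540-114220718) encodes a chain of type XI, a thin-fibril collagen known from cartilage and from tumour stroma. It was at 47.5, 26.1 and 41.9 CPM in 2646TN, 15.3, 23.4 and 13.6 in 2646R, 139, 79.1 and 105 in 14559TN, 27.9, 99.2 and 43.9 in 14559R, and 20.6, 55 and 7.37 in 13TN untreated. Treated values were 89.3, 81.6 and 67.7 CPM in 2646TN, 113, 128 and 87.1 in 2646R, 148, 132 and 123 in 14559TN, 112, 88.9 and 48.9 in 14559R, and 64.8, 76.7 and 34.4 in 13TN. All treated tumours were above all untreated ones in 2646TN and 2646R. A rise was called in 2646R (2.64 ± 0.53, adjusted p = 0.00114), and the mean over clones rose by 1.12 ± 0.22 (adjusted p = 0.000377). In 2646TN the value was 1.04 ± 0.50 (adjusted p = 0.307) and in 13TN 1.07 ± 0.51 (adjusted p = 0.119), and untreated 13TN tumours varied from 7.37 to 55 CPM. Col11a2, its partner chain, had group means of 0.61 to 2.14 CPM and was not called in any of the 14 comparisons.

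Col27a1 (GRCm38 chr4:63214004-63334991) encodes a fibrillar chain known from developing cartilage. No drug response was called for it, with values from -0.36 ± 0.30 (adjusted p = 0.373) in 13TN to 0.51 ± 0.29 (adjusted p = 0.574) in 14559R. Untreated tumours had 113, 119 and 69.8 CPM in 2646TN, 234, 244 and 298 in 2646R, 246, 152 and 273 in 14559TN, 221, 190.3 and 204 in 14559R, and 98.4, 168 and 218 in 13TN. Treated tumours had 156, 138 and 86.1 CPM in 2646TN, 288, 240.3 and 264 in 2646R, 267, 329 and 239 in 14559TN, 295, 408 and 172 in 14559R, and 114, 116 and 145 in 13TN. Its level was higher in 2646R than in 2646TN, by 1.36 ± 0.30 (adjusted p = 0.00107) untreated and 1.06 ± 0.30 (adjusted p = 0.0134) treated, the latter call being lost without treated 2646TN tumour 3 (0.85, adjusted p = 0.088). Col24a1, a rarely read fibrillar gene, held 3 counts in the untreated and 28 in the treated 2646R tumours, a ratio of 9.44 with a 95% counting interval of 3.23 to 45.8 (adjusted p = 0.0207). That call was lost without untreated tumour 1 (adjusted p = 0.107) or treated tumour 3 (adjusted p = 0.0945). The count ratio was 5.74 without untreated tumour 1 and 19.1 without untreated tumour 2. The rise in the mean over clones (1.69 ± 0.51, adjusted p = 0.00905) was lost without treated 2646TN tumour 1 (1.45, adjusted p = 0.0767). That mean takes in a fitted fold for 2646TN, which held 0 counts untreated and 4 treated. The count ratio there was at least 1.465 and the response was not called. In 13TN 9 counts were read in untreated and 6 in treated tumours. Untreated 14559R, at 2.98, 3.92 and 6.83 CPM, exceeded 14559TN, at 0, 0.307 and 2.01 CPM, by 2.48 ± 0.77 (adjusted p = 0.017). Without 14559TN tumour 1 or 2 or 14559R tumour 3 it was no longer called (1.89 to 2.15, adjusted p = 0.0792 to 0.0946). Without 14559TN tumour 3 the value was 4.75, a fitted fold on few counts, since untreated 14559TN held 9 counts, most of them in tumour 3.

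Among the fibril-associated collagens, 3 passed the filter and all 3 rose in 2646R, in 14559TN and in the mean over clones. Col12a1 (GRCm38 chr9:79598991-79718831), whose product links type I fibrils to the surrounding matrix in tissues under load, was at 12.3, 9.33 and 13.5 CPM in 2646TN, 16.9, 12.5 and 19.4 in 2646R, 50.1, 24.2 and 38.2 in 14559TN, 20.1, 54.2 and 15.6 in 14559R, and 7.29, 12.4 and 3.99 in 13TN untreated. With the drug it was at 59.5, 41.8 and 17.1 CPM in 2646TN, 66.7, 58.7 and 37.9 in 2646R, 119.6, 182 and 147 in 14559TN, 48, 36.1 and 28.7 in 14559R, and 20.5, 12.4 and 29.9 in 13TN. Treated tumours were above untreated ones without overlap in every clone but 14559R. It rose by 1.73 ± 0.49 (adjusted p = 0.0488) in 2646TN, by 1.75 ± 0.46 (adjusted p = 0.00999) in 2646R and by 1.99 ± 0.44 (adjusted p = 0.0015) in 14559TN. Its values were 1.37 ± 0.53 (adjusted p = 0.051) in 13TN and 0.32 ± 0.45 (adjusted p = 0.86) in 14559R. In treated tumours 14559R was below 14559TN (-1.99 ± 0.44, adjusted p = 0.000687). The 2646TN call was lost in 18 of 30 fits without 1 library, including those without any untreated tumour of that clone or treated tumour 1 or 2 (1.30 to 1.85, adjusted p = 0.103 to 0.224).

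Col14a1 (GRCm38 chr15:55307750-55520803) encodes undulin, a fibril-associated collagen that limits fibril growth, and had the largest drug response of the 27 genes in 14559TN. It was at 2.01, 1.87 and 0.897 CPM in 2646TN, 0.392, 0.236 and 1.09 in 2646R, 1.01, 1.23 and 0 in 14559TN, 0.249, 14.1 and 0.975 in 14559R, and 0, 0.743 and 1.23 in 13TN untreated. Treated tumours held 3.38, 1.3 and 1.01 CPM in 2646TN, 7.15, 6.78 and 7.07 in 2646R, 42.8, 49 and 34.2 in 14559TN, 0.226, 0.487 and 1.51 in 14559R, and 0.45, 2.72 and 0.754 in 13TN. The 3 treated 14559TN tumours, at 34.2 to 49.0 CPM, stood above every other tumour, the next being untreated 14559R tumour 2 at 14.1 CPM. The rise was 5.81 ± 0.91 (adjusted p = 2.89e-05) in 14559TN and 3.61 ± 0.99 (adjusted p = 0.0109) in 2646R, the latter being lost without untreated tumour 1 (3.39, adjusted p = 0.0577). Treated 14559R was far below treated 14559TN (-5.80 ± 0.90, adjusted p = 9.81e-06). The response of 14559R differed from that of 14559TN by -8.59 ± 1.32 (adjusted p = 8.86e-05). Without untreated 14559R tumour 2 this difference was -5.58 (adjusted p = 0.0108), without treated 14559R tumour 3 it was -9.57 and without untreated 14559TN tumour 3 -7.98. The higher level of untreated 14559R than 14559TN (2.79 ± 0.99, adjusted p = 0.0424) rested on 14559R tumour 2. Without it the value was -0.22 with an adjusted p of 0.912. It also ended without any of the untreated 14559TN tumours (2.19 to 3.28, adjusted p = 0.0678 to 0.152), untreated 2646TN tumour 2, untreated 13TN tumour 2 or treated 2646R tumour 1 (2.78 to 2.79, adjusted p = 0.0501 to 0.0511). The response difference stayed called in every fit without 1 library. The rise in the mean over clones (1.59 ± 0.49, adjusted p = 0.012) was lost without treated 14559R tumour 3 (1.40, adjusted p = 0.0753) and was 2.19 without untreated 14559R tumour 2. Of the other values, the 14559TN response was 5.20 without untreated tumour 3, the 2646R response 4.32 without untreated tumour 3, and the treated 14559 difference -6.78 without 14559R tumour 3. Untreated 2646R held 7 counts and treated 14559R 9, so the values of 4.32, -6.78 and -9.57 are fitted on few counts.

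Col16a1 (GRCm38 chr4:130047840-130099283) encodes a fibril-associated chain that also binds integrins. Its levels were 596, 594 and 526 CPM in 2646TN, 209, 286 and 343 in 2646R, 1105, 982 and 1101 in 14559TN, 477, 816 and 564 in 14559R, and 671, 781 and 684 in 13TN untreated. They were 796, 891 and 606 CPM in 2646TN, 716, 769.5 and 744 in 2646R, 1610, 1792 and 1431 in 14559TN, 858, 1063 and 596 in 14559R, and 1020, 930.3 and 976 in 13TN with RAFi/MEKi. Treated tumours lay above untreated ones without overlap in every clone but 14559R. A rise was called in 2646R (1.41 ± 0.19, adjusted p = 2.10e-06) and 14559TN (0.60 ± 0.18, adjusted p = 0.0126). The 2646R response exceeded that of 2646TN by 0.99 ± 0.26 (adjusted p = 0.0227). This difference was lost without untreated 2646TN tumour 1 or 2 or untreated 2646R tumour 1 (0.82 to 0.97, adjusted p = 0.0517 to 0.0788). The 14559TN call was lost without untreated (0.55, adjusted p = 0.0537) or treated tumour 2 (0.52, adjusted p = 0.0589). The R clones had less of it than the TN clones in untreated tumours of both pairs (-1.03 ± 0.18, adjusted p = 5.54e-05 and -0.78 ± 0.18, adjusted p = 0.00199) and in treated 14559 tumours (-0.94 ± 0.18, adjusted p = 8.70e-05). The difference between treated 2646R and 2646TN was -0.04 ± 0.18 (adjusted p = 0.905).

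Type IV collagen is the sheet-forming collagen of basement membranes, and its genes lie in head-to-head pairs. Col4a1 (GRCm38 chr8:11198423-11312826, minus strand) and Col4a2 (chr8:11312805-11449287, plus strand), the chains of nearly all basement membranes, overlap by 22 bases at their starts. Untreated Col4a1 levels were 247, 282 and 234 CPM in 2646TN, 319, 269.5 and 421 in 2646R, 166, 245 and 174 in 14559TN, 538, 577 and 486 in 14559R, and 189.8, 202 and 184 in 13TN. Treated levels were 244, 247 and 242 CPM in 2646TN, 345, 288 and 268 in 2646R, 284, 293 and 247 in 14559TN, 669, 466 and 585 in 14559R, and 272, 207 and 354 in 13TN. It rose in 14559TN (0.50 ± 0.17, adjusted p = 0.0263) and 13TN (0.53 ± 0.17, adjusted p = 0.0157). The first call was lost without untreated tumour 1 or 3 or treated tumour 1 or 2 (0.40 to 0.47, adjusted p = 0.0708 to 0.137). The second was lost without untreated tumour 3 (0.53, adjusted p = 0.0513) or treated tumour 3 (0.34, adjusted p = 0.151). 14559R had more than 14559TN without overlap, by 1.45 ± 0.17 (adjusted p = 1.26e-07) untreated and 1.06 ± 0.17 (adjusted p = 4.74e-06) treated.

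Col4a2 was at 119, 141 and 117 CPM in 2646TN, 141, 152 and 179.9 in 2646R, 150.2, 208 and 149 in 14559TN, 286, 299 and 339 in 14559R, and 121, 140.1 and 134 in 13TN untreated. Treated tumours had 107, 97.5 and 110.3 CPM in 2646TN, 113, 106 and 85.1 in 2646R, 219.9, 219 and 172 in 14559TN, 358, 283 and 346 in 14559R, and 164, 101 and 243 in 13TN. In both 2646 clones all treated tumours were below the untreated ones. The fall was called in 2646R (-0.64 ± 0.19, adjusted p = 0.0187), and was not called without untreated (-0.53, adjusted p = 0.0812) or treated tumour 3 (-0.53, adjusted p = 0.0987). Again 14559R exceeded 14559TN, by 0.87 ± 0.19 (adjusted p = 0.00116) and 0.69 ± 0.19 (adjusted p = 0.00318). The ratio of Col4a1 to Col4a2 CPM ran from 1.11 to 1.44 in the 6 tumours of 14559TN and from 1.77 to 3.15 in those of 2646R, without overlap. Their log2 CPM had a Pearson r of 0.76 over the 30 libraries.

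**Figure D5:**
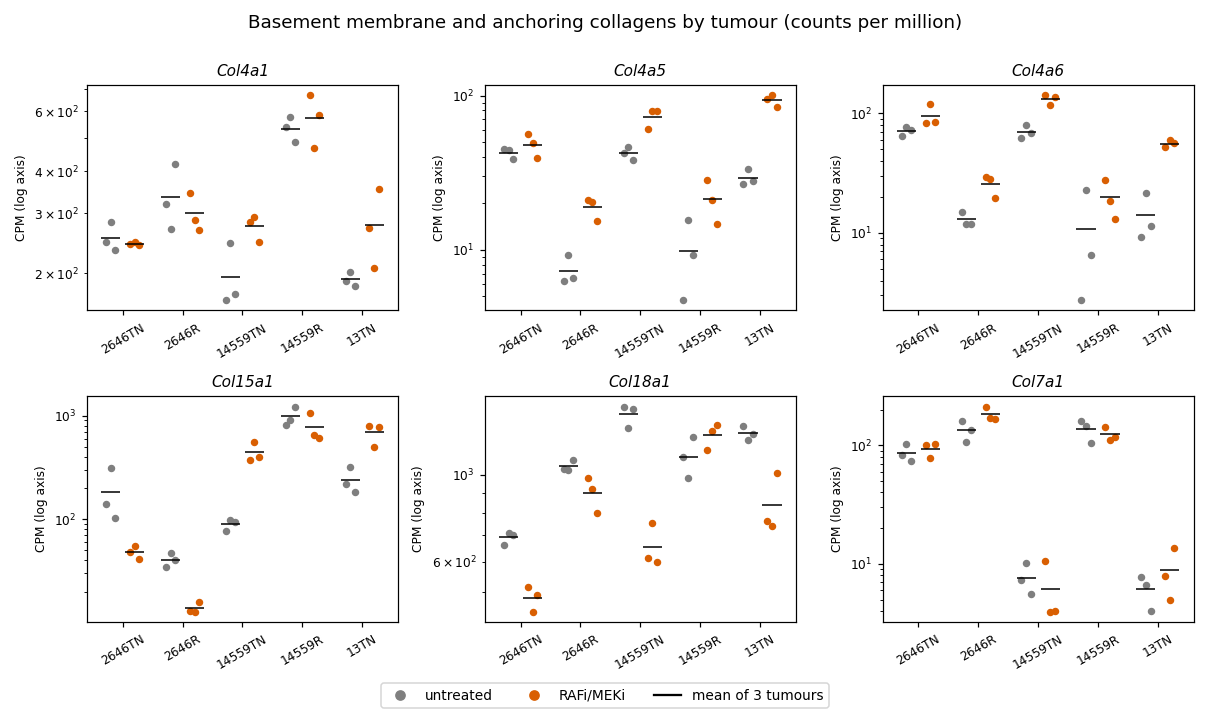
CPM on log axes of Col4a1, Col4a5, Col4a6, Col15a1, Col18a1 and Col7a1 in every tumour, by clone, untreated in grey and RAFi/MEKi-treated in orange, with the mean of 3 tumours as a bar. Col4a5 and Col4a6 are lower in 2646R and 14559R than in their TN partners, Col15a1 moves down in the 2646 clones and up in 14559TN and 13TN, and Col7a1 is near 10 CPM or below in most tumours of 14559TN and 13TN.

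Col4a5 (GRCm38 chrX:141475385-141689234, plus strand) and Col4a6 (chrX:141165403-141474076, minus strand) encode the chains of a second type IV network found in skin and smooth muscle, and 1308 bases lie between the genes. Both genes were lower in R than in TN in all 4 comparisons, so the stretch from 250 to 35 bases before each RefSeq start is shown, from RefSeq (GRCm38.p6), 5′ to 3′ on the strand of the gene. It spans chrX:141475169-141475384 on the plus strand for Col4a5 and chrX:141474111-141474326 on the minus strand for Col4a6. Letters are in lower case with the 1 CCAAT box in capitals.
Col4a5: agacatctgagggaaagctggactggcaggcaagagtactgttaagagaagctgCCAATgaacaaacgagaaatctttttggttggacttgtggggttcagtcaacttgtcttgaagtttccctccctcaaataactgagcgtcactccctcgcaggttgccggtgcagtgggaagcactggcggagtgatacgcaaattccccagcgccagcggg
Col4a6: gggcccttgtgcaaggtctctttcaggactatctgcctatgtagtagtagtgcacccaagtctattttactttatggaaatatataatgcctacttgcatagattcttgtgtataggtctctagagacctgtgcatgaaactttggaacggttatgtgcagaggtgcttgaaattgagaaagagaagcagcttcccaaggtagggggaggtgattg
The motifs searched on both strands were CCAAT for the CCAAT box, GGGCGG for the GC box, TATAAA for the TATA box, TGANTCA for AP-1 factors and CAGAC for SMAD factors. Of all 32851 RefSeq windows of the same 216 bases, 30.5% held a CCAAT box, 27.9% a GC box, 9.80% a TATA box, 5.99% an AP-1 motif and 38.0% a SMAD motif. Besides the CCAAT box of Col4a5, neither window held a match, so no motifs overlapped. Motifs nearer to the start than 35 bases, TATA boxes among them, were not searched, so their absence there cannot be read from these windows. G or C made up 52.3% of the Col4a5 and 43.5% of the Col4a6 window.

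Col4a5 was at 44.8, 44.5 and 38.6 CPM in 2646TN, 6.27, 9.21 and 6.54 in 2646R, 42.5, 46.3 and 38.2 in 14559TN, 4.73, 15.7 and 9.26 in 14559R, and 26.7, 33.7 and 27.9 in 13TN untreated. It was at 56.1, 48.9 and 39.5 CPM in 2646TN, 21, 20.6 and 15.4 in 2646R, 60.9, 79 and 79.2 in 14559TN, 28.5, 21.2 and 14.6 in 14559R, and 95.2, 100.3 and 84.4 in 13TN with the drug. Untreated 2646R and 14559R tumours held 4.73 to 15.7 CPM, below every tumour of the other clones. R against TN stood at -2.53 ± 0.27 (adjusted p = 1.15e-08) untreated and -1.34 ± 0.24 (adjusted p = 0.00013) treated in the 2646 pair. In the 14559 pair it stood at -2.08 ± 0.26 (adjusted p = 2.89e-07) and -1.76 ± 0.24 (adjusted p = 2.82e-07). It rose with the drug in 2646R (1.37 ± 0.27, adjusted p = 0.00049), 14559TN (0.79 ± 0.23, adjusted p = 0.00835) and 13TN (1.66 ± 0.23, adjusted p = 1.19e-06). The 2646R response exceeded that of 2646TN by 1.20 ± 0.36 (adjusted p = 0.0498), a call close to the threshold that was lost in 24 of 30 fits without 1 library (1.07 to 1.32, adjusted p = 0.0502 to 0.139) and with scaling that left out the collagens (adjusted p = 0.0503).

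Col4a6 levels were 65.1, 76.5 and 73.3 CPM in 2646TN, 15.1, 11.8 and 12 in 2646R, 61.8, 80.3 and 68.4 in 14559TN, 2.74, 22.8 and 6.58 in 14559R, and 9.23, 21.8 and 11.4 in 13TN untreated. Treated tumours had 83.7, 119.9 and 84.1 CPM in 2646TN, 29.5, 28.1 and 19.7 in 2646R, 142, 117 and 136 in 14559TN, 27.8, 18.5 and 13.1 in 14559R, and 52, 60 and 56 in 13TN. The R tumours again lay below the TN tumours of their pair without overlap. Untreated 13TN, at 9.23 to 21.8 CPM, lay within the range of the untreated R tumours, 2.74 to 22.8 CPM. The R against TN differences were -2.45 ± 0.40 (adjusted p = 4.46e-05) and -1.89 ± 0.37 (adjusted p = 0.000859) in untreated and treated 2646 tumours. They were -2.69 ± 0.41 (adjusted p = 3.94e-05) and -2.72 ± 0.38 (adjusted p = 3.97e-06) in 14559 tumours. A drug response was called in 13TN (1.98 ± 0.40, adjusted p = 0.000525) and in the mean over clones (1.03 ± 0.17, adjusted p = 4.91e-05). The values were 0.91 ± 0.35 (adjusted p = 0.0561) in 14559TN and 0.98 ± 0.41 (adjusted p = 0.0918) in 2646R. Without untreated 14559R tumour 2 the untreated 14559 difference was -3.90. Within untreated 14559R, tumour 2 was the highest in Col4a5, Col4a6, Col11a1, Col12a1 and Col14a1. The same tumour was also highest in Col1a1, Col1a2, Col3a1, Col4a1, Col5a1, Col5a2, Col6a2 and Col16a1. In Col5a3, Col6a3, Col18a1, Col23a1 and Col27a1 it was the lowest. Log2 CPM of Col4a5 and Col4a6 had a Pearson r of 0.84 over the 30 libraries. The ratio of Col4a5 to Col4a6 CPM was 0.408 to 0.782 in the 18 tumours of 2646TN, 2646R and 14559TN, 0.687 to 1.73 in the 6 of 14559R and 1.51 to 2.9 in the 6 of 13TN.

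Col8a1 (GRCm38 chr16:57624258-57754737) encodes a short-chain network collagen of vessels and the cornea. Untreated tumours had 75.9, 72.5 and 75.8 CPM in 2646TN, 129, 203 and 206 in 2646R, 120.0, 78.8 and 114 in 14559TN, 66.4, 185 and 193 in 14559R, and 25, 22 and 28.6 in 13TN. Treated tumours had 351, 284 and 231 CPM in 2646TN, 158, 162 and 167 in 2646R, 52.7, 40 and 37.3 in 14559TN, 180.1, 101 and 74.6 in 14559R, and 12.8, 31.5 and 11.6 in 13TN. The drug responses went opposite ways without overlap of the groups, up by 1.95 ± 0.36 (adjusted p = 0.00266) in 2646TN and down in 14559TN (-1.27 ± 0.37, adjusted p = 0.0133). The response of 2646R differed from that of 2646TN by -2.09 ± 0.50 (adjusted p = 0.0189). The 14559TN call was lost without treated tumour 3 (-1.18, adjusted p = 0.0552), and the response difference without treated tumour 1 of 2646TN (-1.93, adjusted p = 0.0552) or of 2646R (-2.04, adjusted p = 0.0511). R exceeded TN in untreated 2646 tumours (1.26 ± 0.36, adjusted p = 0.00888) and in treated 14559 tumours (1.46 ± 0.37, adjusted p = 0.00265). Its partner chain Col8a2 was too rare to test, with 91 counts in all, 2 in the 15 untreated tumours and 89 in the 15 treated ones. Of the latter, 30 were in 2646TN, 30 in 2646R, 18 in 14559TN, 11 in 13TN and 0 in 14559R.

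Type VI collagen forms beaded filaments around cells from chains encoded by Col6a1, Col6a2 and Col6a3. Col6a1 (GRCm38 chr10:76708792-76726168) was at 254, 289 and 205 CPM in 2646TN, 286, 305 and 334 in 2646R, 425, 447 and 491 in 14559TN, 491, 656 and 704 in 14559R, and 465, 545 and 408 in 13TN untreated. Treated tumours had 366, 314 and 213 CPM in 2646TN, 562, 432 and 305 in 2646R, 568, 689 and 564 in 14559TN, 1055, 841 and 752 in 14559R, and 624, 653 and 668 in 13TN. Its mean over clones rose by 0.43 ± 0.08 (adjusted p = 0.000138), with single clones between 0.26 ± 0.19 (adjusted p = 0.567) in 2646TN and 0.52 ± 0.19 (adjusted p = 0.27) in 14559R. Treated R exceeded treated TN by 0.54 ± 0.19 (adjusted p = 0.0387) in the 2646 pair, with overlap, and by 0.54 ± 0.19 (adjusted p = 0.0167) in the 14559 pair, without. Col6a2 (GRCm38 chr10:76595762-76623630), which lies 85161 bases from Col6a1 on the same strand, was at 219, 249 and 184 CPM in 2646TN, 183, 279 and 309 in 2646R, 355, 401 and 361 in 14559TN, 607, 853 and 781 in 14559R, and 320.2, 389 and 276 in 13TN untreated. It was at 309, 258 and 179 CPM in 2646TN, 534, 332 and 304 in 2646R, 485, 496 and 423 in 14559TN, 890.3, 831 and 588 in 14559R, and 599.5, 448 and 598 in 13TN treated. Log2 CPM of Col6a1 and Col6a2 had a Pearson r of 0.93 over the 30 libraries, and that of Col6a3 and Col6a2 one of 0.58. Col6a2 rose in 13TN (0.74 ± 0.22, adjusted p = 0.0114), a call lost without untreated tumour 3 (0.65, adjusted p = 0.0642). It was higher in R in treated 2646 (0.65 ± 0.22, adjusted p = 0.0374) and in untreated and treated 14559 tumours (1.00 ± 0.22, adjusted p = 0.0014 and 0.72 ± 0.22, adjusted p = 0.00828).

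Col6a3 (GRCm38 chr1:90765923-90843971), the gene of the largest type VI chain, fell with the drug in 13TN and in the mean over clones. It stood at 1966, 1456 and 997 CPM in 2646TN, 1445, 1750 and 1823 in 2646R, 1759, 1711 and 2104 in 14559TN, 4271, 4010 and 4139 in 14559R, and 2574, 2946 and 3291 in 13TN untreated. Treated tumours had 1218, 1334 and 479.7 CPM in 2646TN, 2207, 1832 and 1741 in 2646R, 845, 1760 and 929.7 in 14559TN, 4134, 4254 and 3671 in 14559R, and 1274, 1500 and 1073 in 13TN. In 13TN all treated tumours were below all untreated ones (-1.20 ± 0.29, adjusted p = 0.00312), and the mean over clones fell by 0.45 ± 0.13 (adjusted p = 0.00835). The ratio of Col6a3 to Col6a2 within a tumour averaged 9.18 ± 2.39 in untreated and 2.42 ± 0.815 in treated 13TN tumours, and 5.02 ± 0.782 and 2.50 ± 0.938 in 14559TN (SD, n = 3). It averaged 6.75 ± 1.94 and 3.93 ± 1.25 in 2646TN and 6.68 ± 1.05 and 5.13 ± 0.871 in 2646R. Untreated and treated ratios did not overlap in these 4 clones and overlapped in 14559R. R exceeded TN in treated 2646 tumours (0.93 ± 0.29, adjusted p = 0.0259) and in untreated (1.16 ± 0.29, adjusted p = 0.00551) and treated 14559 tumours (1.77 ± 0.30, adjusted p = 3.62e-05). In treated 2646 tumours the type VI differences depended on single libraries. Without 2646TN tumour 3 they were 0.35, 0.46 and 0.59 for Col6a1, Col6a2 and Col6a3 (adjusted p = 0.235, 0.208 and 0.111). Without 2646R tumour 1 they were 0.32, 0.37 and 0.83 (adjusted p = 0.278, 0.28 and 0.0833). A fit of the groups compared gave 0.53, 0.64 and 0.92 (adjusted p = 0.141, 0.0851 and 0.073). Col6a1 was also lost there without 2646TN tumour 2 (adjusted p = 0.0588) or 2646R tumour 2 (adjusted p = 0.0848), Col6a2 without 2646TN tumour 2 (adjusted p = 0.0681) and Col6a3 without 2646R tumour 2 (adjusted p = 0.051). The treated 14559 difference of Col6a1 was lost without 14559TN tumour 1 or 3 (0.49 each, adjusted p = 0.061 and 0.0631) or 14559R tumour 1 (0.39, adjusted p = 0.108).

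The multiplexins Col15a1 and Col18a1, related collagens at the outer face of basement membranes and known for the antiangiogenic fragments restin and endostatin, moved in different ways. Col15a1 (GRCm38 chr4:47208161-47313167) was at 139, 311 and 104 CPM in 2646TN, 34.3, 47 and 40.3 in 2646R, 76.5, 98.4 and 93.6 in 14559TN, 813, 913 and 1221 in 14559R, and 219, 317 and 182 in 13TN untreated. With the drug it was at 48.2, 55.7 and 41.3 CPM in 2646TN, 13, 12.9 and 15.9 in 2646R, 371, 557 and 397 in 14559TN, 1053, 653 and 611 in 14559R, and 801, 500.4 and 780.4 in 13TN. Treated tumours lay below untreated ones in both 2646 clones and above them in 14559TN and 13TN. It fell in 2646TN (-1.93 ± 0.33, adjusted p = 0.00129) and 2646R (-1.54 ± 0.37, adjusted p = 0.00543) and rose in 14559TN (2.31 ± 0.33, adjusted p = 1.30e-05) and 13TN (1.53 ± 0.31, adjusted p = 0.000657). The test of a difference among the 5 responses gave an adjusted p of 6.04e-07. R was lower than TN in the 2646 pair (-2.18 ± 0.34, adjusted p = 2.85e-05 untreated, -1.79 ± 0.38, adjusted p = 0.00162 treated). It was higher in the 14559 pair (3.46 ± 0.34, adjusted p = 1.37e-07 and 0.81 ± 0.31, adjusted p = 0.0337). The response of 14559R differed from that of 14559TN by -2.65 ± 0.44 (adjusted p = 0.000341). Of these calls, the treated 14559 difference was lost without 14559TN tumour 1 (0.69, adjusted p = 0.118) or 3 (0.73, adjusted p = 0.1) or 14559R tumour 1 (0.52, adjusted p = 0.196). Without untreated 2646TN tumour 2 the response of 2646TN was -1.33 and the untreated 2646 difference -1.58, both still called.

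Col18a1 (GRCm38 chr10:77052178-77166548) was at 663, 709 and 703 CPM in 2646TN, 1033, 1028 and 1094 in 2646R, 1496, 1322 and 1471 in 14559TN, 1109, 984 and 1248 in 14559R, and 1331, 1225 and 1275 in 13TN untreated. It was at 516, 447 and 491 CPM in 2646TN, 979.9, 921 and 798 in 2646R, 614, 752 and 599 in 14559TN, 1156, 1298 and 1340 in 14559R, and 764, 739.5 and 1010 in 13TN with the drug. All treated tumours lay below all untreated ones in the 3 TN clones and in 2646R. It fell in 2646TN (-0.51 ± 0.12, adjusted p = 0.013), 14559TN (-1.13 ± 0.12, adjusted p = 2.67e-08) and 13TN (-0.61 ± 0.12, adjusted p = 0.000265). The values were -0.23 ± 0.12 (adjusted p = 0.202) in 2646R and 0.18 ± 0.12 (adjusted p = 0.644) in 14559R. The response of 14559R differed from that of 14559TN by 1.31 ± 0.17 (adjusted p = 3.48e-06). For 2646R against 2646TN the difference was 0.29 ± 0.17 (adjusted p = 0.402). R exceeded TN in treated tumours of both pairs (0.89 ± 0.12, adjusted p = 3.54e-06 and 0.95 ± 0.12, adjusted p = 1.97e-07) and in untreated 2646 tumours (0.60 ± 0.12, adjusted p = 0.00026). In untreated 14559 tumours R was slightly lower (-0.36 ± 0.12, adjusted p = 0.0299). This call was lost without a filter on low counts (-0.37, adjusted p = 0.0626), with scaling that left out the collagens (-0.32, adjusted p = 0.0502) and without 14559TN tumour 1 or 3 or 14559R tumour 1 or 2 (-0.36 to -0.28, adjusted p = 0.0794 to 0.143). The 2646TN fall was lost without untreated (-0.49, adjusted p = 0.0544) or treated tumour 2 (-0.46, adjusted p = 0.0679) and in a fit of those groups alone (-0.51, adjusted p = 0.062).

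Col7a1 and Col23a1 differed between the R and TN clones in all 4 comparisons, and no drug response was called for either in a single clone. Col7a1 (GRCm38 chr9:108953586-108984875), the gene of the anchoring fibrils that hold the epidermis to the dermis, was at 83.2, 103 and 73.3 CPM in 2646TN, 159, 106 and 136 in 2646R, 7.34, 10.1 and 5.54 in 14559TN, 160.2, 145 and 106 in 14559R, and 7.78, 6.68 and 3.99 in 13TN untreated. Treated tumours had 99.7, 78.7 and 102 CPM in 2646TN, 212, 172 and 167 in 2646R, 10.5, 3.96 and 3.99 in 14559TN, 143, 110.1 and 117 in 14559R, and 7.88, 4.98 and 13.6 in 13TN. Both 2646 clones and 14559R lay at 73.3 CPM or more, and 14559TN and 13TN at 13.6 CPM or less. R exceeded TN by 4.17 ± 0.31 (adjusted p = 3.47e-10) and 4.36 ± 0.31 (adjusted p = 2.11e-11) in untreated and treated tumours of the 14559 pair. The treated difference was 4.95 without 14559TN tumour 1. In the 2646 pair the differences were 0.63 ± 0.24 (adjusted p = 0.0421) and 0.97 ± 0.24 (adjusted p = 0.00527). No drug response was called, with values between -0.33 ± 0.38 (adjusted p = 0.548) in 14559TN and 0.48 ± 0.36 (adjusted p = 0.337) in 13TN. The untreated 2646 difference was lost with median-of-ratios size factors (0.61, adjusted p = 0.0513) and in 7 fits without 1 library. These left out untreated 2646TN tumour 1 or 3, untreated 2646R tumour 1 or 3, untreated 13TN tumour 1 or 2 or treated 2646R tumour 1 (0.48 to 0.62, adjusted p = 0.0513 to 0.181). Mir711 overlaps an exon of Col7a1 on the same strand.

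Col23a1 (GRCm38 chr11:51289920-51583918), a transmembrane collagen of epithelial cells, stood at 7.29, 6.22 and 9.64 CPM in 2646TN, 1.96, 0.472 and 0.273 in 2646R, 0.253, 0.92 and 0 in 14559TN, 29.6, 10.6 and 20.7 in 14559R, and 0.972, 1.24 and 0.614 in 13TN untreated. It stood at 3.66, 6.16 and 8.81 CPM in 2646TN, 1.95, 1.4 and 1.77 in 2646R, 0.567, 0 and 0.285 in 14559TN, 21.5, 11 and 61.5 in 14559R, and 1.57, 2.04 and 1.26 in 13TN treated. All 14559R tumours held 10.6 CPM or more and all 14559TN tumours 0.92 CPM or less. Untreated 14559R exceeded 14559TN by 5.70 ± 0.74 (adjusted p = 1.19e-06). The value was 7.01 without 14559TN tumour 2 and 5.10 without 14559TN tumour 3. Both are fitted folds on few counts, as untreated 14559TN held 4 counts. In treated tumours 384 counts stood against 3, a ratio of 121 with a 95% counting interval of 41.5 to 588 (adjusted p = 1.99e-08). That ratio was 64.8 without 14559R tumour 3, 72.1 without 14559TN tumour 2 and 255 without 14559TN tumour 1. In the 2646 pair it was lower in R, at -2.96 ± 0.65 (adjusted p = 0.000624) untreated and -1.85 ± 0.61 (adjusted p = 0.0303) treated. The untreated value was -4.25 without 2646R tumour 1, a fitted fold on few counts, as untreated 2646R held 13, most of them in tumour 1. The treated call was lost without 2646TN tumour 2 or 3 or any 2646R tumour (-1.94 to -1.49, adjusted p = 0.0522 to 0.155). Col28a1, a minor collagen of nerve sheaths, was at 13.1, 15.6 and 8.97 CPM in untreated 2646TN and at 1.37, 1.18 and 0.545 CPM in untreated 2646R (-3.52 ± 0.65, adjusted p = 7.03e-05). Its mean was below 5 CPM in the other 8 groups. Col25a1, a transmembrane collagen of neurons, held 32 counts in untreated and 163 in treated 13TN tumours, and 0 to 11 in each of the other 8 groups. In 13TN it went from 1.7, 5.2 and 1.23 CPM untreated to 8.78, 23.5 and 5.03 CPM treated with overlap (2.17 ± 0.72, adjusted p = 0.025). DESeq2 did not call it (2.24, adjusted p = 0.33), nor did the fits without untreated tumour 1 (1.94, adjusted p = 0.0928), untreated tumour 3 (1.87, adjusted p = 0.104) or treated tumour 2 (1.32, adjusted p = 0.244). Without untreated tumour 2 the value was 3.07.

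The other 6 genes that missed the filter were Col6a4, Col9a2, Col9a3, Col13a1, Col17a1 and Col20a1, with 10 to 84 counts in all and at most 9 counts in a library. Col9a2, a chain of a cartilage collagen, held 33 counts, of which 20 were in treated 14559TN, 9 in treated 13TN, 3 in treated 2646TN and 1 in treated 2646R, and 0 were in the 15 untreated tumours. An exon of BX649560.1 overlaps Col20a1 on the same strand. Col8a2 and Col9a2 were picked out after their counts had been seen.

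The enzymes and partners that collagen chains need were followed in 4 lists, again as the mean response over clones. Of 24 tested genes for folding, modification and secretion of collagen, 6 rose and 6 fell (17.4% and 21.0% of all genes), with a median log2 fold change of -0.07. Creb3l1, a transcription factor of collagen-secreting cells, rose by 1.28 ± 0.23 (adjusted p = 7.40e-05), and P4ha3, a prolyl hydroxylase subunit, by 1.03 ± 0.13 (adjusted p = 1.77e-07). Another prolyl hydroxylase gene, P4ha2, fell (-1.18 ± 0.11, adjusted p = 1.73e-09), as did Plod2, a lysyl hydroxylase (-0.78 ± 0.08, adjusted p = 8.60e-10). Of 13 tested genes for processing and cross-linking outside the cell, 5 rose and 1 fell (17.4% and 21.0% of all genes), with a median of 0.31. Among them were Adamts2, a procollagen peptidase (0.77 ± 0.29, adjusted p = 0.0384), Tgm2, a cross-linking transglutaminase (0.69 ± 0.13, adjusted p = 0.000218), Pcolce, an enhancer of procollagen cleavage (0.51 ± 0.08, adjusted p = 1.20e-05), and Loxl1, a lysyl oxidase relative (0.47 ± 0.06, adjusted p = 3.27e-07).

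Of 8 tested collagen receptor genes, 1 rose and 2 fell (17.4% and 21.0% of all genes), with a median of 0.04. Ddr2, a kinase that binds fibrillar collagen, rose by 0.25 ± 0.06 (adjusted p = 0.000449), while Adgrg1, an adhesion receptor for type III collagen (-0.96 ± 0.28, adjusted p = 0.0059), and Itgb1, the shared chain of the collagen integrins (-0.19 ± 0.06, adjusted p = 0.00684), fell. Of 12 tested basement membrane partners, 4 rose and 5 fell (17.4% and 21.0% of all genes), with a median of 0.06. The counts of the receptor list, and those of the list for folding, modification and secretion, were near the share of all genes. Nid2, a linker of laminin and type IV collagen, rose by 1.68 ± 0.32 (adjusted p = 7.40e-05), and the laminin chain gene Lama5 (-1.34 ± 0.15, adjusted p = 2.83e-07) and the type IV collagen cross-linker Pxdn (-0.52 ± 0.05, adjusted p = 2.77e-09) fell.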

How the data were processed

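RNA from 30 tumours, 3 in each of 10 groups, was measured as read counts per gene. Per the submitters' processing notes the authors used STAR 2.6.0c and GRCm38. Per the file headers, the deposited counts were made with featureCounts 1.6.2 by gene, with stranded counting, so reads of a gene and its antisense partner were kept apart. The collagen chain genes, the gene lists and the rule for named genes were chosen with earlier results of these data known.

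A reference table of gene names gave symbols to 54409 of the 54532 gene IDs, and the 34 collagen genes have the same spans in the files as in GENCODE vM21. Libraries of a group were compared pairwise and none was a copy of another (chi-square per degree of freedom of 3.26 to 17.2). Counts were tested in edgeR 4.0.16 (R 4.3.3, limma 3.58.1) with robust quasi-likelihood fits of the 10 groups, TMM factors of 0.926 to 1.08, filterByExpr and 20 residual degrees of freedom. All adjusted p-values are Benjamini-Hochberg values over the 13286 genes tested, taken separately in each of 14 comparisons and called under 0.05. The biological coefficient of variation was 18.2%. The procedure was tested on simulated data.

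Values per tumour are given for Col1a1, Col1a2, Col3a1, Col4a1, Col4a2, Col5a1, Col5a2, Col6a1, Col6a2, Col6a3 and Col18a1, and for up to 10 called collagen genes per comparison with the largest log2 fold change, provided the higher group averaged 5 CPM or more. Of each other list, up to 4 called genes were named by the same measure, of which 1 is not reported here. A group with 3 counts or fewer gives a ratio with an exact 95% interval in place of a fitted fold, and such intervals cover counting error alone. Figures were drawn with matplotlib 3.10.9. Alternatives were median-of-ratios size factors, DESeq2 1.42.0, no filter on low counts, scaling without the collagen genes, fits of the groups compared and the omission of each library.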

Additional observations from a re-analysis of the deposited data

Results flagged for a closer look

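Drug responses differed between clones for 9 collagen genes of 27 in edgeR's test of the 5 responses together, near the share of all genes (28.8%). The adjusted p was 6.04e-07 for Col15a1, 1.19e-05 for Col18a1, 0.000256 for Col14a1, 0.000858 for Col8a1, 0.00643 for Col4a5, 0.011 for Col5a3, 0.0111 for Col1a1, 0.0116 for Col16a1 and 0.0238 for Col4a2. Col16a1 was not called without untreated 2646R tumour 1 (adjusted p = 0.063), nor Col4a2 without untreated (adjusted p = 0.0652) or treated 2646R tumour 3 (adjusted p = 0.072). The response of 2646R minus that of 2646TN was 1.20 for Col4a5 (adjusted p = 0.0498), 0.99 for Col16a1 (adjusted p = 0.0227), -1.25 for Col5a3 (adjusted p = 0.0365) and -2.09 for Col8a1 (adjusted p = 0.0189) on the log2 scale. The response of 14559R minus that of 14559TN was -2.65 for Col15a1 (adjusted p = 0.000341), 1.31 for Col18a1 (adjusted p = 3.48e-06) and -8.59 for Col14a1 (adjusted p = 8.86e-05). The last was -5.58 without untreated 14559R tumour 2 (adjusted p = 0.0108). The calls of the 2646 pair were each lost in fits without 1 library, from 2 of 30 for Col8a1 to 24 of 30 for Col4a5. Single tumours far from their group could not be looked for by a formal rule in groups of 3.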

How the results depend on the processing

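Without the filter on low counts, where all 34 collagen genes are tested, 2646TN had 10 in place of 6, 2646R 19 in place of 12, 14559TN 17 in place of 9, 14559R 6 in place of 0 and 13TN 17 in place of 11. There the response differences went from 4 to 7 in the 2646 pair and from 3 to 7 in the 14559 pair, and the genes differing among the 5 responses from 9 to 19. DESeq2 gave 1 in 14559R and 14 among the 5 responses. A fit of the groups compared gave 15 in 14559TN. Over all genes, 14559R had 26 calls, 113 with DESeq2, 319 without the filter and 3 in a fit of its own groups. With 1 library left out, 2646TN had 3 to 6 calls, with 3 without untreated or treated tumour 2. In 14559R there were 0 to 2, with 2 without its untreated tumour 2 and 1 without its treated tumour 3 or treated 2646TN tumour 3. In 13TN there were 6 to 14, with 6 without untreated tumour 3. Treated 2646R against 2646TN gave 6 to 13, with 6 without 2646TN tumour 3 and 7 without 2646R tumour 1. The response difference of the 2646 pair gave 1 to 5, with 1 or 2 in the fits without any untreated 2646TN or 13TN tumour, untreated 2646R tumour 1, or treated tumour 1 or 2 of either 2646 clone. Col14a1 in untreated 14559R against 14559TN ran from -0.22 without 14559R tumour 2 to 3.34 without 14559R tumour 1, against 2.79 with all. Of 157 calls of single genes, 155 were kept with median-of-ratios size factors, 155 with DESeq2, 156 without the filter and 154 with scaling that left out the collagens. Fits of the groups compared kept 123 of 128. These 128 leave out the comparisons that use all 10 groups and the genes that missed the filter of the smaller fit. Fits without 1 library kept 144 to 156. The cause of these changes was not tested. No paired analysis was possible because every tumour has a code of its own and replicate numbers are names.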
